A study of Homo sapiens with 6 samples.

Results

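Molecular chaperones bind other proteins while these are unfolded and help them reach or regain their shape. In the cytosol, HSP70 proteins take up exposed stretches with the help of J-domain partners and of HSP110 proteins that exchange their nucleotide, and HSP90 acts on clients later in folding. When unfolded protein accumulates, the transcription factor HSF1 binds heat shock elements in chaperone promoters, and the inducible members are transcribed strongly. Mitochondria have their own HSP70, a chaperonin of HSP60 with its HSP10 lid, and proteases such as LONP1, all made from nuclear genes, and a stress response through ATF5, ATF4 and DDIT3 that has been described to raise some of them.

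The transcripts described here are those of 10 chaperone and protease genes, chosen by gene symbol. The 6 cytosolic members are HSPA1A, HSPA1B, HSPA8, HSP90AA1, HSPH1 and DNAJB1, and the 4 mitochondrial members are HSPA9, HSPD1, HSPE1 and LONP1. All 10 were found among the 24462 different symbols of the count table, and all 10 were among the 13068 rows that passed the low count filter, HSPA1A with only 3 to 22 counts per library. The libraries came from U87MG, an established human glioblastoma line whose cells the labels give as naïve, kept for 24 h (day 1) either in DMEM without serine and glycine or in complete DMEM that held both amino acids. Per the labels' protocols, the cells of both groups were grown with 10% fetal bovine serum. The labels name no genetic change in either group, and each group had 3 libraries, called here deprived 1 to 3 and complete 1 to 3. Separate cultures are not mentioned in the labels, so each p-value rests on a spread between libraries that may be purely technical.

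Total counts were 6249706 to 7247995 per library, where 3 counts correspond to 0.414 to 0.480 CPM (counts per 1000000 counts of a library). Of 8 glioma and mesenchymal markers, VIM at 5110 to 6914 CPM, CD44 at 542 to 862 CPM and FN1 at 1676 to 2114 CPM were abundant. NES lay at 42.2 to 68.0 CPM and OLIG2 at 1.52 to 6.85 CPM. SOX2 reached at most 0.142 CPM and the astrocyte gene GFAP at most 0.891 CPM, and S100B had 0 counts in every library. The 5 epithelial markers summed to at most 1.80 CPM in a library, although the growth protocol calls the cells epithelial, and CDH1 and KRT5 were at 0. The libraries did not fall by label. PHGDH, the first enzyme of serine synthesis, ranged from 59.0 to 64.4 CPM in deprived 2, complete 2 and complete 3 but from 193 to 212 CPM in the other 3 libraries, deprived 1, deprived 3 and complete 1, and the first principal component placed the libraries in the same manner. The libraries labelled deprived 2 and complete 1 thus lay with the other label. Whether these labels were exchanged was not tested, and the size and direction of every difference by label, and the 0 calls, depend on it.

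Heat shock elements are built from GAA units in alternating orientation, and the promoters of the members were read to see which hold such letters. Promoter sequences were taken from RefSeq on GRCh38.p14 for all 10 members, which have 15 annotated starts in all, and the 250 bases before each start were searched on both strands. A pair of units, GAANNTTC or TTCNNGAA, was found for 6 members, namely HSPA1A, HSPA1B, HSPA8, HSP90AA1, DNAJB1 and HSPD1, in 6 of their windows. Over all 35116 windows of that length in the table, 11.6% held such a pair, and 14% of all 27305 genes had a window with such a pair. The 3-unit forms GAANNTTCNNGAA or TTCNNGAANNTTC, which contain the pairs, were found for HSPA8, HSP90AA1 and HSPD1. Such forms were in 0.441% of all windows and for 0.557% of all genes. The letters TGATGNAA, the core of the amino acid response element bound by ATF4 with C/EBP partners, were in none of the members' windows and in 3.14% of all windows. A match describes letters and does not show that a factor binds there, and a window without a match says nothing about the factor.

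The windows below are shown because HSPA1A and HSPA1B are near-identical copies, HSPA8 and HSP90AA1 hold the full 3-unit element, and HSPA9 and LONP1, which hold none, varied most between libraries among the mitochondrial members. Capitals mark heat shock element units. The windows lie at chr6:31815293-31815542 on the plus strand (HSPA1A), chr6:31827488-31827737 on the plus strand (HSPA1B), chr11:123062137-123062386 on the minus strand (HSPA8), chr14:102087045-102087294 on the minus strand (HSP90AA1, the downstream start), chr5:138575402-138575651 on the minus strand (HSPA9) and chr19:5720453-5720702 on the minus strand (LONP1, the upstream start).
HSPA1A: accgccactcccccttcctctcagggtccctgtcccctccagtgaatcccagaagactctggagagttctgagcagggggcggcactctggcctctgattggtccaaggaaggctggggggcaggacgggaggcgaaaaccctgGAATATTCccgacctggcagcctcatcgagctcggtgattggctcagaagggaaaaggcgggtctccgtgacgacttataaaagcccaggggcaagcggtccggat
HSPA1B: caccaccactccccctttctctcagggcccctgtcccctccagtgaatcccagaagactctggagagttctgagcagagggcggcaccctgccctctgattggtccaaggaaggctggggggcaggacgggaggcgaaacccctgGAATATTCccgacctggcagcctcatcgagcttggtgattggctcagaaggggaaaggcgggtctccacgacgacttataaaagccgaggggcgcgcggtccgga
HSPA8: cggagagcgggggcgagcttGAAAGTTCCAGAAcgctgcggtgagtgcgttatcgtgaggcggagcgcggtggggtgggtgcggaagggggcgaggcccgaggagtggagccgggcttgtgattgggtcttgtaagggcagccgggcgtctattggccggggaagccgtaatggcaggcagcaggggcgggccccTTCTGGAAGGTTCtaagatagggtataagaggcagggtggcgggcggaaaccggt
HSP90AA1: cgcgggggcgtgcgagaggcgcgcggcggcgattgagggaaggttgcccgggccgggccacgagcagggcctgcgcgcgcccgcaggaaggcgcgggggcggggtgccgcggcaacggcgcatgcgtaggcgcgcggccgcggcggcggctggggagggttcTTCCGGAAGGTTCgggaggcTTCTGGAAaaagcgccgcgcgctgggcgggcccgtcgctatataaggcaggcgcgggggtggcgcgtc
HSPA9: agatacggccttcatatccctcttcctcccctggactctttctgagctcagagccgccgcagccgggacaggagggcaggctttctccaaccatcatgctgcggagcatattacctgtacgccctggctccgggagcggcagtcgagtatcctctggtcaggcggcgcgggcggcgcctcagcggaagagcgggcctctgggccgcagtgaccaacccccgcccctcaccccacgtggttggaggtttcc
LONP1: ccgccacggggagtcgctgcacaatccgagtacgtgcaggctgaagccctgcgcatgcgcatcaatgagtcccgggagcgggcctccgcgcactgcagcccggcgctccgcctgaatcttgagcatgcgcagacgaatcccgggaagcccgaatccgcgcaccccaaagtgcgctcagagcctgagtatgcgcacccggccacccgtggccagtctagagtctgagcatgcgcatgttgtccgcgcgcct
The HSPA1A and HSPA1B windows matched in 235 of 251 alignment columns, and each holds the pair GAATATTC about equally far from its start. HSPD1 and HSPE1 are transcribed away from each other, with 104 bases between the outer HSPD1 start at 197500274 and the HSPE1 start at 197500379 on chromosome 2. That stretch holds no such pair, and the HSPD1 element lies downstream of the outer start at chr2:197500062-197500090 on the minus strand, shown here with its overlapping 3-unit matches in capitals.
HSPD1: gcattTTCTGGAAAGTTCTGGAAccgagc

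**Figure D1:**
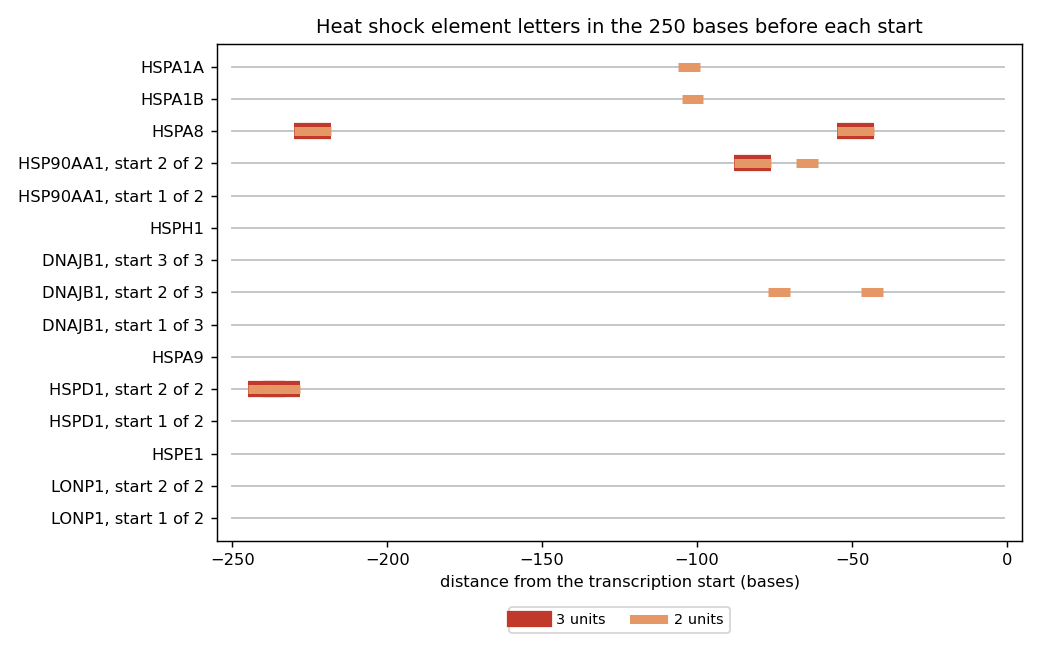
Heat shock element letters in the 250 bases before each of the 15 annotated starts of the 10 members. The horizontal axis is the distance from the start in bases, dark bars are 3-unit matches and light bars 2-unit matches. HSPA8 holds 2 separate 3-unit matches, at -230 and -55, and the HSPH1, HSPA9, HSPE1 and LONP1 windows hold none.

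The first question was whether 24 h without serine and glycine changed the chaperone transcripts. None of the 10 members was called by edgeR (quasi-likelihood test, Benjamini-Hochberg adjusted p under 0.05), and 0% of all 13068 genes were. An unadjusted p under 0.05 was reached by 0 members and by 247 genes, or 1.89%. DESeq2 and limma-voom also called 0 genes, with 140 and 251 genes under an unadjusted p of 0.05. In RNA from whole cultures, fewer cells with a transcript and less of it per cell cannot be told apart. For none of the members did the deprived libraries separate from the complete ones, where 6.97% of all genes did. Every member had an edgeR adjusted p of 0.999, and the log2 fold changes ran from -0.02 for DNAJB1 to 0.21 for HSPA9. The median was 0.04 for the cytosolic and 0.08 for the mitochondrial members, against 0.003 over all genes tested, whose quartiles were -0.10 and 0.11.

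Among the cytosolic members, HSPA8, the constitutive HSP70 of the cytosol, varied least between libraries. It measured 804, 815 and 748 CPM in deprived 1, 2 and 3 and 764, 791 and 787 CPM in complete 1, 2 and 3. The complete libraries all lay within the range of the deprived ones. The log2 fold change (with its standard error, SE) was 0.01 (SE 0.08) and the 95% interval of the fold ran from 0.898 to 1.14. Its coefficient of variation over the 6 libraries was 3.19%, where counting alone would give 1.36%.

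HSP90AA1 encodes the inducible cytosolic HSP90. It measured 5504, 5180 and 5042 CPM in deprived 1, 2 and 3 and 4720, 5507 and 5031 CPM in complete 1, 2 and 3. The highest and the lowest value both came from complete medium. It averaged 5242 ± 237 CPM without and 5086 ± 396 CPM with serine and glycine (mean ± SD, n = 3 each), and the 95% interval of the fold ran from 0.903 to 1.18. Counting error was 0.530% for this gene, so that nearly all of its 5.89% variation lay between libraries.

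HSPH1, the HSP110 that exchanges the nucleotide of HSP70, measured 330, 276 and 309 CPM in deprived 1, 2 and 3. In complete 1, 2 and 3 it measured 313, 275 and 301 CPM. Deprived 2 and complete 2 were low alike, and the log2 fold change was 0.04 (SE 0.10). DNAJB1, the J-domain protein that activates HSP70, measured 203, 217 and 193 CPM in deprived 1, 2 and 3 and 212, 209 and 202 CPM in complete 1, 2 and 3. The complete libraries again lay inside the range of the deprived ones. Its variation over the 6 libraries, 3.98%, was not far above the 2.66% that counting gives, and the 95% interval of its fold ran from 0.865 to 1.12.

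HSPA1A and HSPA1B encode the stress-inducible HSP70 and are neighbouring near-identical genes. Their annotated transcripts in GENCODE release 29 match in 89.04% of alignment columns, and 72.6% of the 50-base stretches of the HSPA1A transcript also occur in that of HSPA1B. In the last 300 bases of the HSPA1A transcript, which a library kit that reads 3′ ends favours, 0 of 251 such stretches occur in HSPA1B. The treatment of reads with several alignments is not given in the sources used here, so the split between the copies is uncertain. Each symbol stood on 5 rows of the table, of which 4 had 0 counts in every library.

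HSPA1B measured 47.5, 33.0 and 46.1 CPM in deprived 1, 2 and 3 and 50.4, 37.8 and 34.6 CPM in complete 1, 2 and 3. It was highest in complete 1, deprived 1 and deprived 3, the libraries in which PHGDH was high. By label it averaged 42.2 ± 7.99 CPM without and 40.9 ± 8.34 CPM with serine and glycine (mean ± SD, n = 3 each), a log2 fold change of 0.05 (SE 0.18). HSPA1A had 22, 3 and 12 counts in deprived 1, 2 and 3 and 13, 8 and 10 counts in complete 1, 2 and 3. At these counts, with 29.7% counting error, its 95% interval of the fold ran from 0.446 to 2.91 and excludes neither a halved nor a doubled level. With the counts of both copies summed into 1 row, the log2 fold change was 0.05. HSPA6, a strictly heat-inducible HSP70 that is no member, reached at most 0.851 CPM.

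Of the mitochondrial members, HSPD1 and HSPE1 were steadier than HSPA9 and LONP1. HSPD1, the HSP60 subunit of the chaperonin, measured 722, 727 and 711 CPM in deprived 1, 2 and 3 and 726, 686 and 741 CPM in complete 1, 2 and 3. The deprived libraries all lay within the range of the complete ones. Between the labels the log2 fold change was 0.0042 (SE 0.07), and the 95% interval of the fold ran from 0.893 to 1.13. Its partner HSPE1, the HSP10 lid transcribed from the other side of the same region, measured 155, 125 and 145 CPM in deprived 1, 2 and 3. It measured 152, 138 and 138 CPM in complete 1, 2 and 3. Deprived 2 was the lowest library, and the log2 fold change was -0.01 (SE 0.10). HSPE1 varied by 7.67% over the 6 libraries and HSPD1 by 2.62%, where counting gives 3.20% and 1.42%.

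HSPA9, the mitochondrial HSP70 that pulls proteins through the import channel and folds them, measured 357, 229 and 337 CPM in deprived 1, 2 and 3. It measured 334, 233 and 233 CPM in complete 1, 2 and 3. Complete 1 lay with deprived 1 and deprived 3, and deprived 2 lay with complete 2 and complete 3, with no value between 233 and 334 CPM. By label HSPA9 averaged 308 ± 69.0 CPM without and 266 ± 58.4 CPM with serine and glycine (mean ± SD, n = 3 each). The log2 fold change of 0.21 (SE 0.19) was within the spread between libraries, and it stayed positive when any library was left out, between 0.09 and 0.40.

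LONP1, the ATP-dependent protease of the mitochondrial matrix, measured 122, 70.2 and 124 CPM in deprived 1, 2 and 3 and 131, 81.3 and 70.4 CPM in complete 1, 2 and 3. The division of the libraries was that of HSPA9, with the highest value in complete 1. By label the log2 fold change was 0.16 (SE 0.26), and with 1 library left out it ran from -0.01, without complete 3, to 0.47, without complete 1. LONP1 varied by 28.8% over the 6 libraries against 3.82% from counting, and HSPA9 by 21.4% against 2.25%.

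**Figure D2:**
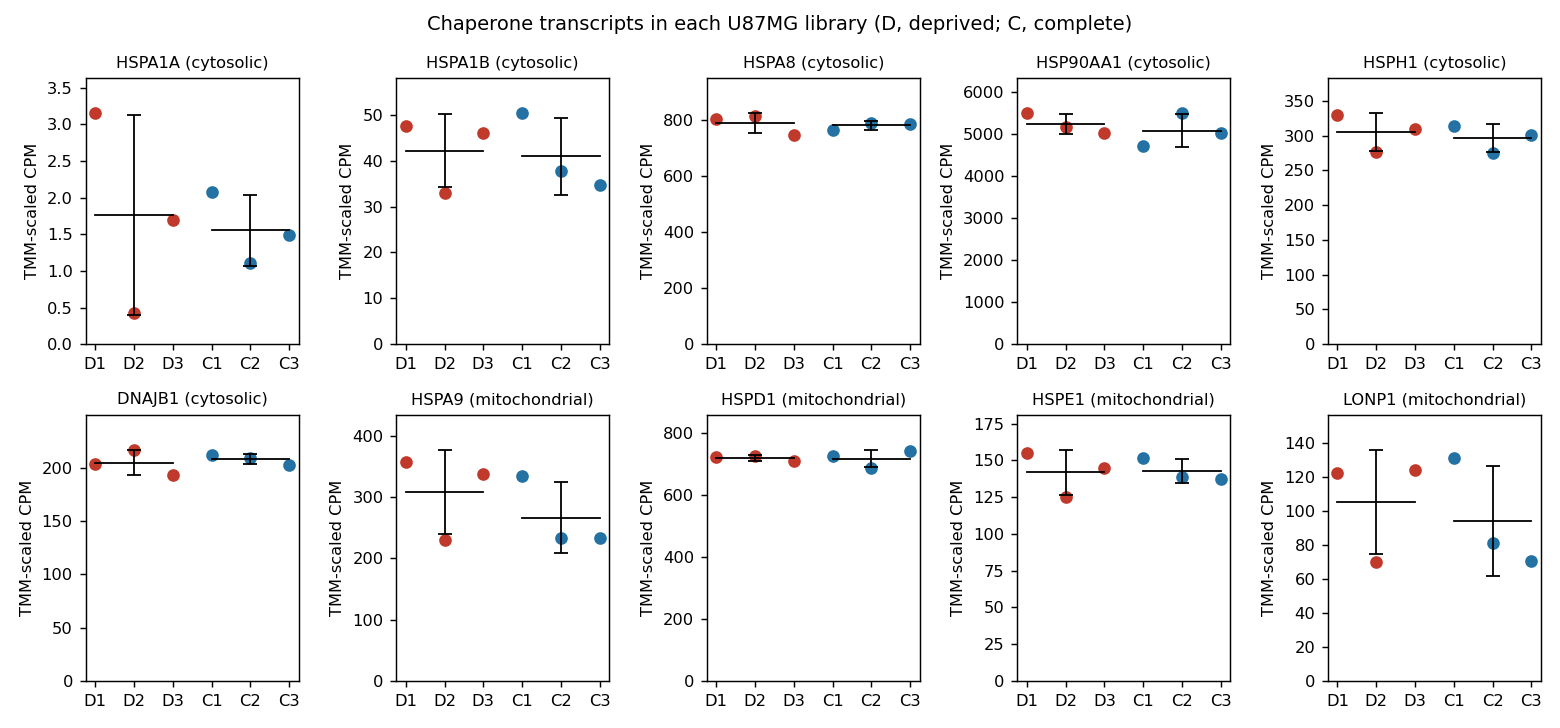
TMM-scaled CPM of each member in each library (D1 to D3, deprived; C1 to C3, complete), on linear axes from 0, with the mean of each group as a line and its SD as a bar (n = 3). HSPA9, LONP1 and HSPA1B are high in D1, D3 and C1, while HSPA8, DNAJB1 and HSPD1 are nearly level over all 6 libraries.

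In 6 of the 10 members, HSPA1A, HSPA1B, HSPH1, HSPA9, HSPE1 and LONP1, deprived 1, deprived 3 and complete 1 were the 3 highest libraries. The same held for 18.3% of all genes tested, and 17.7% had their 3 lowest values there, which was true of none of the members. This set of libraries was singled out from values, so the counts are a description. The size differed widely between the 6 members. The lowest of deprived 1, deprived 3 and complete 1 exceeded the highest other library only narrowly for HSPH1, at 309 against 301 CPM. The same held for HSPE1, at 145 against 138 CPM, and for HSPA1A, at 12 against 10 counts. With counting errors of 2.20%, 3.20% and 29.7%, the rank of HSPH1, HSPE1 and HSPA1A is uncertain. HSPA1B divided at 46.1 against 37.8 CPM, HSPA9 at 334 against 233 CPM and LONP1 at 122 against 81.3 CPM. The highest library exceeded the lowest by 1.20-fold for HSPH1, 1.24-fold for HSPE1, 1.53-fold for HSPA1B, 1.56-fold for HSPA9 and 1.87-fold for LONP1, and for HSPA1A the counts are too low for such a ratio to be read.

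Each value by label was also computed without deprived 2 and complete 1. These libraries were left out because of their values, so that the result is no independent test of the medium. Only deprived 1 and deprived 3 then stood against complete 2 and complete 3, and the SE of HSPA9 was 0.07 instead of 0.19. By edgeR's quasi-likelihood test at the same threshold, 15.9% of 13145 genes were then called, and 3 of the 10 members were. HSPA9 was higher in deprived medium by a log2 fold change of 0.58 with an edgeR adjusted p of 1.39e-07, LONP1 by 0.70 with 5.09e-07 and HSPA1B by 0.37 with 0.0360. Of all 13145 genes tested, 8.57% were called higher in deprived medium. The other members stayed between -0.05 for DNAJB1 and 0.15 for HSPH1, apart from the poorly counted HSPA1A at 0.90, with HSPD1 at 0.0056 and HSP90AA1 at 0.00099. Their edgeR adjusted p did not pass the threshold.

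**Figure D3:**
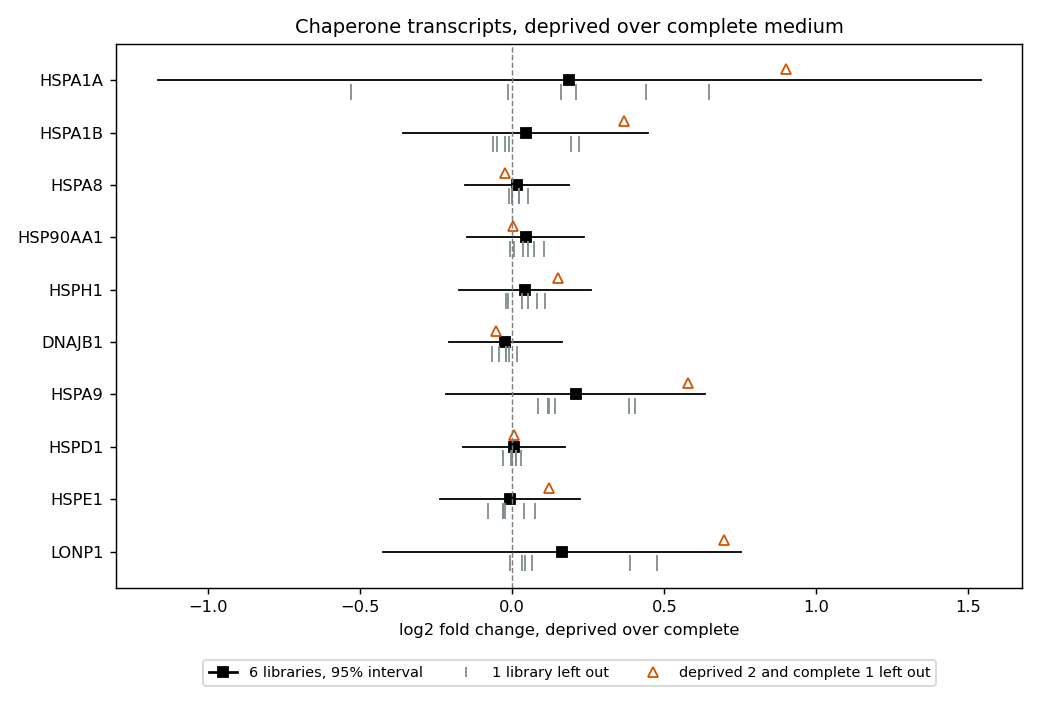
Log2 fold change of each member, deprived over complete medium. Squares and lines show the value over 6 libraries with its 95% interval, ticks the values with 1 library left out, and triangles the value without deprived 2 and complete 1. All intervals include 0, and the triangles stand farthest from the squares for HSPA1A, LONP1, HSPA9 and HSPA1B.

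Other genes of the same machinery were read from fixed lists, and 0 of their members passed the threshold by label in either direction. Among the regulators, HSF1, the main heat shock factor, measured 46.5 to 59.0 CPM and had a log2 fold change of -0.08 (SE 0.11). HSF2, a related factor, had 0.13 (SE 0.13). ATF5, ATF4, DDIT3 and CEBPB, listed here as factors of the mitochondrial stress response, all 4 had their 3 highest values in deprived 1, deprived 3 and complete 1. So did PHGDH and 18.3% of all genes tested. The same held for 4 of the 32 genes tested in the lists of mitochondrial HSP70 partners, proteases and import. Whether a mitochondrial response was involved was not tested. ATF5 measured 126, 80.5 and 155 CPM in deprived 1, 2 and 3 and 138, 82.5 and 89.0 CPM in complete 1, 2 and 3. DDIT3, also called CHOP, measured 141, 71.9 and 158 CPM in deprived 1, 2 and 3 and 160, 79.1 and 73.7 CPM in complete 1, 2 and 3. ATF4 itself, at 409, 162 and 477 CPM in deprived 1, 2 and 3 and 414, 174 and 154 CPM in complete 1, 2 and 3, had the widest range of the list. By label the log2 fold changes were 0.50 (SE 0.44) for ATF4, 0.23 (SE 0.25) for ATF5 and 0.25 (SE 0.34) for DDIT3.

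The subunits of TRiC, the cytosolic chaperonin that folds actin and tubulin, lay the opposite way. All 8 subunit genes had their 3 lowest values in deprived 1, deprived 3 and complete 1, as did 17.7% of all genes tested. By label all 8 had a negative log2 fold change under each of 4 scalings, with a median of -0.09 under TMM. Of all 13068 genes tested, 6406 were negative under TMM, and the lower quartile was -0.10. CCT8 measured 205, 239 and 193 CPM in deprived 1, 2 and 3 and 201, 245 and 240 CPM in complete 1, 2 and 3. CCT7 had a log2 fold change of -0.11 (SE 0.09) and CCT5 of -0.10 (SE 0.09). Without deprived 2 and complete 1 all 8 were lower in deprived medium past the edgeR threshold, with a median log2 fold change of -0.23, under the same reservation on the choice of libraries. In that fit 7.38% of all 13145 genes tested were called lower and 8.57% higher. Other lists held called genes there too. All 4 genes of the list with ATF4 and 3 of 6 small heat shock genes were higher. Also higher were 1 of 7 other HSP70, HSP90 and HSP110 genes, 1 of 9 mitochondrial HSP70 partners and 1 of 14 genes in the list of mitochondrial proteases. Lower were 2 of 9 import genes, 1 of 19 co-chaperones and 1 of 9 mitochondrial HSP70 partners.

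Small heat shock proteins, which hold unfolded proteins without using ATP, were tested for 6 of 7 genes. All 6 were positive by label under each scaling, with a median log2 fold change of 0.20. Of all genes tested, 51.0% were positive under TMM. The better counted HSPB1, HSPB8 and HSPB6 lay near level, at 0.05 (SE 0.14), 0.06 (SE 0.11) and 0.07 (SE 0.26). CRYAB, HSPB3 and HSPB7, which gave the larger values, stood at 7.66 CPM or less. HSPB1, also called HSP27, measured 714, 528 and 756 CPM in deprived 1, 2 and 3 and 714, 607 and 604 CPM in complete 1, 2 and 3. HSPB7, best known from heart and muscle, stood at 6.31, 0.995 and 7.66 CPM in deprived 1, 2 and 3 and at 4.94, 0.692 and 0.446 CPM in complete 1, 2 and 3, the last of these being 3 counts. By label this came to a log2 fold change of 1.33 (SE 0.85), and HSPB3 had 0.46 (SE 0.41).

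The remaining lists, called cytosolic here, were closer to level. They follow gene families and also hold genes of other compartments, such as HSPA13. Co-chaperones were positive by label in 7 of 19 genes, or in 5 under upper quartile or library total scaling, with a median log2 fold change of -0.07 and the values furthest from 0 in relation to their error for PTGES3, the HSP90 partner p23, and HSPBP1, an exchange factor of HSP70, at -0.14 each. Other J-domain genes were positive in 4 of 10 tested, with DNAJB2 at -0.19 and DNAJB6 at 0.12. Other HSP70, HSP90 and HSP110 genes were positive in 5 of 7 tested, or in 4 under those scalings, among them HSPA13, an HSP70 relative of microsomes, at 0.11 (SE 0.17). HSPA4, an HSP110-type protein, measured 261 to 270 CPM in the deprived and 229 to 247 CPM in the complete libraries, which did not overlap. The difference for HSPA4 was 0.13 on the log2 scale (SE 0.08), and edgeR gave an adjusted p of 0.999. It was 1 of 50 genes tested in the 5 other cytosolic lists without overlap, against 6.97% of all genes tested.

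Mitochondrial partners of HSPA9 were positive by label in 5 of 9 genes, or in 4 under those scalings. GRPEL2, a nucleotide exchange factor of HSPA9, measured 33.4, 29.4 and 37.0 CPM in deprived 1, 2 and 3 and 30.0, 25.5 and 16.9 CPM in complete 1, 2 and 3. Its log2 fold change of 0.47 had an SE of 0.20 and an unadjusted edgeR p of 0.0426, which did not survive adjustment. TRAP1, the mitochondrial HSP90, lay at 24.9 to 31.0 CPM in deprived and 29.3 to 36.1 CPM in complete medium, with a log2 fold change of -0.28 and a standard error of 0.13. The list of mitochondrial proteases was positive in 9 of 14 genes, with PITRM1 at 0.16 and SPG7 at 0.10. It also holds genes that are not proteases themselves, such as CLPX, CLPB, PHB and PHB2. Import genes were positive in 4 of 9, in 3 with upper quartile scaling and in 2 with library totals. TOMM20 was at -0.11 and TIMM17A at -0.13. Of the 32 genes tested in these 3 lists, 2 did not overlap by label, PITRM1 and TOMM20, against 6.97% of all genes.

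**Figure D4:**
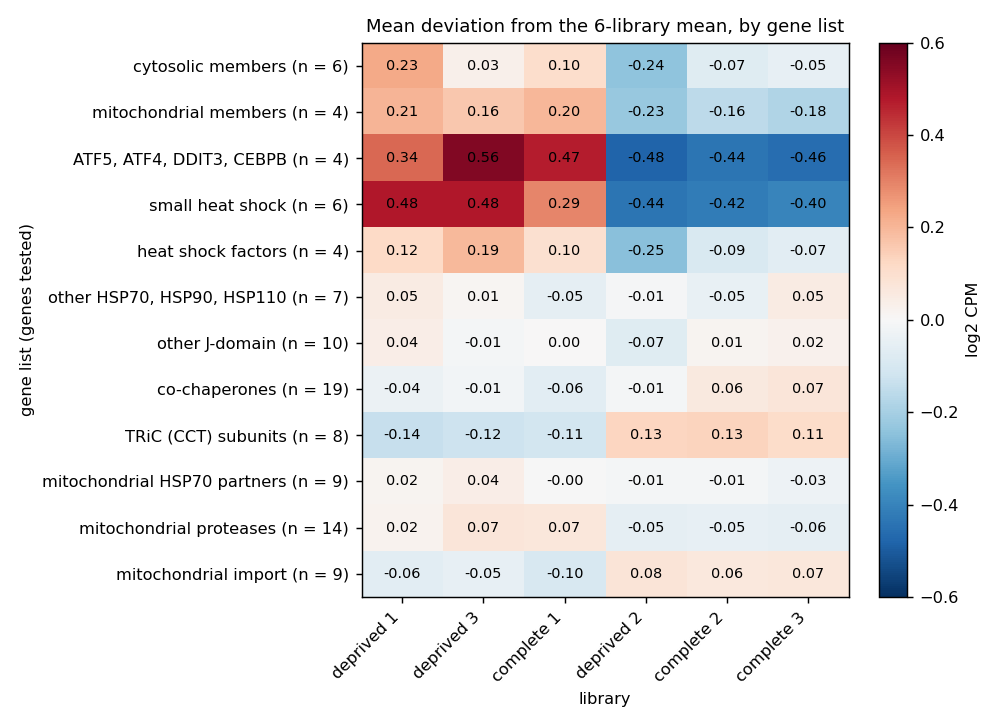
Mean deviation of each gene list from its 6-library mean, on the log2 CPM scale, by library. Rows are gene lists with the number of genes tested, columns are libraries, with deprived 1, deprived 3 and complete 1 placed side by side. Mitochondrial members score 0.21, 0.16 and 0.20 in those 3 libraries, while the TRiC subunits score -0.14, -0.12 and -0.11 there.

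The genes whose library pattern was nearest to that of LONP1, the mitochondrial member with the largest range, were MME, HINT3 and SHMT2, with a root mean square difference of 0.04, 0.05 and 0.06 on the log2 CPM scale over 6 libraries, among 7541 genes with a mean of at least 20 CPM. SHMT2, which turns serine into glycine in mitochondria, measured 120, 69.9 and 122 CPM in deprived 1, 2 and 3 and 124, 72.8 and 71.1 CPM in complete 1, 2 and 3. For HSPA1A, the cytosolic member with the largest range, the nearest were LY96, TBC1D16 and GRIP2 at 0.30, 0.33 and 0.33, distances that its low counts make hard to read.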

How the data were processed

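RNA of U87MG cells was measured in 6 libraries, 3 per medium. Per the labels' protocols, cells were grown with 10% fetal bovine serum, and libraries were built from 500 ng of total RNA with a QuantSeq kit for 3′ ends, so that a long transcript gives no more counts than a short one. What the authors deposited is a table of unnormalized read counts, 1 row per gene symbol entry. Per the submitters' processing notes the aligner was Bowtie2; the sources used here give no counting program, build, annotation or strand setting. The deposited columns stand in the order deprived 1, complete 1, deprived 3, deprived 2, complete 2, complete 3, and were matched to samples by name. Whether 2 libraries had their labels exchanged, in the titles or in this order of columns, was not tested.

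Counts were tested with edgeR 4.0.16 in R 4.3.3 (filterByExpr, minimum count 10, TMM, quasi-likelihood test, Benjamini-Hochberg threshold 0.05). CPM was TMM-scaled, with a prior count of 3 on the log2 scale. Standard errors are the log2 fold change over the root of F. Fits were tested on simulated data. Alternatives, listed in the closing section, used also DESeq2 1.42.0 and limma 3.58.1. Sequences were read with pandas 2.3.3 and aligned with Biopython 1.88. GENCODE release 29 gave the transcripts.

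Members and lists were chosen with earlier results of these data known. The text names the 10 members, the genes of each list with the smallest p, and the genes nearest to LONP1 and HSPA1A. CCT8, HSPB1, HSPB6, HSPB8, CRYAB, HSPA6 and DDIT3 were picked with their values in view. Some of the cell type marker lists that were computed are not reported here. The depth gives floors of 0.414 to 0.480 CPM at 3 counts, which cover counting error only.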

Additional observations from a re-analysis of the deposited data

How the results depend on the processing

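The 0 calls by label, over all genes and among the 10 members, held under RLE, upper quartile and library total scaling, with no low count filter, with a filter of CPM 5 in 3 libraries, with DESeq2, with limma-voom, with rows of a shared symbol summed and with each library left out. HSPA1A could not be tested under the stricter filter. Leaving out deprived 2 and complete 1, which were picked by their values, gave 2096 called genes and 3 called members, with log2 fold changes of 0.58 for HSPA9, 0.70 for LONP1 and 0.37 for HSPA1B. Over the other settings the lowest adjusted p was 0.572 for HSPA9, 0.573 for LONP1 and 0.699 for HSPA1B. Genes with an unadjusted p under 0.05 numbered 247 with edgeR on all libraries, 393 with no filter, 429 with the replicate block, 140 with DESeq2, 130 to 1141 with 1 library left out and 3598 without both libraries. In the last fit the median of the mitochondrial members was 0.35, and 2 signs turned, HSPA8 to -0.0247 and HSPE1 to 0.12. HSPD1, near 0 throughout, was -0.000534 with upper quartile scaling and -0.0051 with library totals, and HSPA1A was -0.15 with limma-voom; the cause was not tested.

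With 1 library left out, log2 fold changes ran from -0.53 to 0.65 for HSPA1A, -0.0620 to 0.22 for HSPA1B, -0.0098 to 0.0525 for HSPA8, -0.0079 to 0.10 for HSP90AA1, -0.0222 to 0.11 for HSPH1, -0.0680 to 0.0153 for DNAJB1, -0.0291 to 0.0278 for HSPD1, -0.0791 to 0.0745 for HSPE1 and -0.0075 to 0.47 for LONP1. HSPA9 alone among the members kept its sign in each of these fits. The labels do not tie equal replicate numbers to a shared culture or day. No pairing was taken for that reason. Deviations of same-numbered libraries from their group means correlated at 0.38, 0.38 and -0.28 across genes. Differently numbered libraries reached 0.42, for deprived 2 with complete 3, and deprived 2 with complete 1 gave -0.60. Such values carry the position of deprived 2 and complete 1 against their labels, so they cannot decide a pairing. With the replicate block, 0 genes were called, and the log2 fold change was 0.20 for HSPA9 and 0.17 for LONP1.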
